A study of Homo sapiens with 12 samples.

Results

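The MYC, MAX and MXD network is a set of transcription factors with a basic helix-loop-helix zipper, and 9 of its genes, MYC, MAX, MLX, MXD1, MXI1, MXD3, MXD4, MNT and MGA, were taken by symbol from the 62069 gene identifiers of the count table. All 9 were found, and all 9 passed the filter on low counts that left 13248 genes for testing. Expression had been measured by RNA-seq in IMR90 ER:RAS cells, a fibroblast line from human fetal lung. These cells carry an oncogenic RAS protein joined to a hormone-binding part of the oestrogen receptor, and 4-hydroxytamoxifen (4OHT) turns that protein on. There were 3 groups of 4 libraries, each of cells at passage 15 and day 6, grown in DMEM with serum. Libraries 17 to 20 received the solvent DMSO, libraries 21 to 24 received 4OHT at 100 nM, and libraries 29 to 32 received 4OHT together with 3-deazaadenosine (3DA), an adenosine analogue that inhibits S-adenosylhomocysteine hydrolase. The sources used here state neither how much 3DA was given nor when. ER:RAS was present in every group, the controls included. Cells without ER:RAS given 4OHT, and cells given 3DA alone, were not analysed here, so 4OHT cannot be told apart from RAS, and 3DA is seen only on top of 4OHT. The labels do not say that the libraries of a group were grown as separate cultures, and p-values then describe spread among libraries that could be technical replicates.

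MYC works as a pair with MAX: the dimer binds DNA at a short motif called the E-box and recruits histone acetyltransferases and elongation factors, which raises transcription of genes for ribosome production, metabolism and growth. The MXD proteins, MXI1 (also called MXD2) and MNT pair with MAX as well, bind the same motif and recruit SIN3-histone deacetylase corepressors, so they oppose MYC. MLX is a MAX-like partner that pairs with the glucose-sensing Mondo proteins and with some MXD proteins and MNT, and MGA pairs with MAX inside a Polycomb complex called PRC1.6. In fibroblasts, oncogenic RAS is known for driving senescence, a lasting arrest of division, and MYC protein is itself stabilised by RAS signalling.

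The E-box letters that the network's dimers bind best are CACGTG, which read the same on both strands. The 250 bases before each annotated start were searched for these letters, and no other motif was searched. RefSeq promoters of the GRCh38.p14 assembly were matched for 8 of the 9 genes, with none for MYC, and they made up 13 promoters. The letters were found in 3 of the 13 (23.1%), one each of MXD4, MNT and MLX, against 2228 of all 35116 promoters (6.34%) and 8.28% of the promoters of genes tested. A match is a description of sequence and not a measured binding site, and no binding was measured here. The 3 promoters are shown 5′ to 3′ on the strand of their gene, because they hold the letters that the network's own proteins recognise, with the E-box in capitals. That of MXD4 is chr4:2262110-2262359 on the minus strand, with the E-box starting 238 bases before the start. That of MNT is chr17:2401061-2401310 on the minus strand, with the E-box 193 bases before, and that of MLX is chr17:42566850-42567099 on the plus strand, with the E-box 50 bases before.
MXD4: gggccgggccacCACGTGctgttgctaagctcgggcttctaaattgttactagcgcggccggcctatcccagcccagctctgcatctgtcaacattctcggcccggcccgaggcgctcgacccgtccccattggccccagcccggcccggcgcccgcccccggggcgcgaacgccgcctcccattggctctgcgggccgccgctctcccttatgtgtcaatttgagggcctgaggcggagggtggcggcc
MNT: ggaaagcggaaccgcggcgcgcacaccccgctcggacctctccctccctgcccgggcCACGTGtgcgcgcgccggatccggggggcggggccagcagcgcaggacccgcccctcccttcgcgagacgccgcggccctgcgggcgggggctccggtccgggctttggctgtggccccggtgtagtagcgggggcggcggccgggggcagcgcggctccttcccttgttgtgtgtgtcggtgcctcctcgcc
MLX: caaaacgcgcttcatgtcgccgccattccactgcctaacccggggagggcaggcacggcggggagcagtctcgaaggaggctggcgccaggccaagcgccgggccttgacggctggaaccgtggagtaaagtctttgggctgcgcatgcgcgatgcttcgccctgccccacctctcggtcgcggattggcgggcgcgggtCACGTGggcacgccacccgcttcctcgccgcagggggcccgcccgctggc
These 3 genes did not share a direction in the libraries: MLX rose with 4OHT, MXD4 fell, and no comparison called MNT.

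The libraries held between 9451160 and 19291493 counted reads. Library 31 of the 4OHT+3DA group stood apart: the correlation, across 12989 genes, of its deviation in log2 CPM with the GC content of the transcripts was −0.475, beside −0.193 in library 30 and −0.010 to 0.109 in the other 10. All 10 fibroblast markers were tested, and DCN, COL3A1 and COL1A2 were among the 7 that fell with 4OHT, beside 25.5% of all tested genes. With 3DA against 4OHT 1 was higher (PDGFRA, log2 0.90) and 3 lower (LUM, COL1A2 and VIM), beside 14.4% and 12.4% of all tested genes. Of 8 epithelial markers 4 were tested, and the summed level of the 8 was 104.5 to 126.4 CPM with DMSO, 47.1 to 54.5 with 4OHT and 36.0 to 47.4 with 4OHT+3DA. KRT19 and KRT18 made up most of it with DMSO. Against DMSO, KRT19 changed by a log2 fold change of −4.23 with 4OHT and −4.21 with both agents, and KRT18 by −0.36 with both agents. EPCAM was at 0.770 to 1.66 CPM on average per group, and NKX2-1 and SFTPC had no read. Of 6 endothelial markers 2 were tested, with a summed level of at most 7.50 CPM in any library and no read under the matched identifiers of PECAM1 and CDH5. None of the 7 immune markers was tested, and their summed level was at most 1.12 CPM. The part of these markers in the results on the network was not tested.

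Setting 4OHT beside DMSO shows the network in cells given 4OHT, the agent used to turn ER:RAS on. MYC, MAX, MLX and MXD1 rose, and MXD3 and MXD4 fell. These 4 higher and 2 lower calls, at an adjusted p under 0.05 in edgeR's quasi-likelihood test, stood against a background in which 26.5% of all tested genes were called higher and 25.5% lower (52.0% in either direction). The median log2 fold change of the 9 genes was 0.24, and that of all tested genes was −0.01. With 3DA added to 4OHT, MYC, MXD3 and MXI1 were higher than with 4OHT alone and no member was called lower by edgeR, DESeq2 or limma-voom, with 1 (MXD1) at an unadjusted p under 0.05 in edgeR. The background there was 14.4% higher and 12.4% lower (26.9% in either direction), and the medians were −0.07 for the 9 genes and 0.01 for all genes. Against DMSO, the cells given both agents had 5 higher members (MYC, MAX, MLX, MXD1 and MXI1) and 2 lower (MXD3 and MXD4), beside 27.0% and 24.6% of all genes (51.5% in either direction), with medians of 0.33 and 0.01. Without library 31 the same 3 members were called higher with 3DA than with 4OHT, MYC by 0.41, MXD3 by 1.29 and MXI1 by 0.50 on the log2 scale. The other members then stood at −0.26 (MXD1), −0.23 (MGA), −0.14 (MAX), −0.03 (MNT), −0.01 (MLX) and 0.0038 (MXD4), and none of these was called. Against DMSO, without library 31, MXI1 lost its call (0.38, edgeR adjusted p = 0.0632) and MGA was called lower. The groups did not overlap for 6 of the 9 genes with 4OHT against DMSO (51.5% of all tested genes), for 4 with 3DA against 4OHT (25.0%) and for 7 with both agents against DMSO (44.7%). The comparisons share libraries, so their values are given side by side and are not independent of each other.

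**Figure D1:**
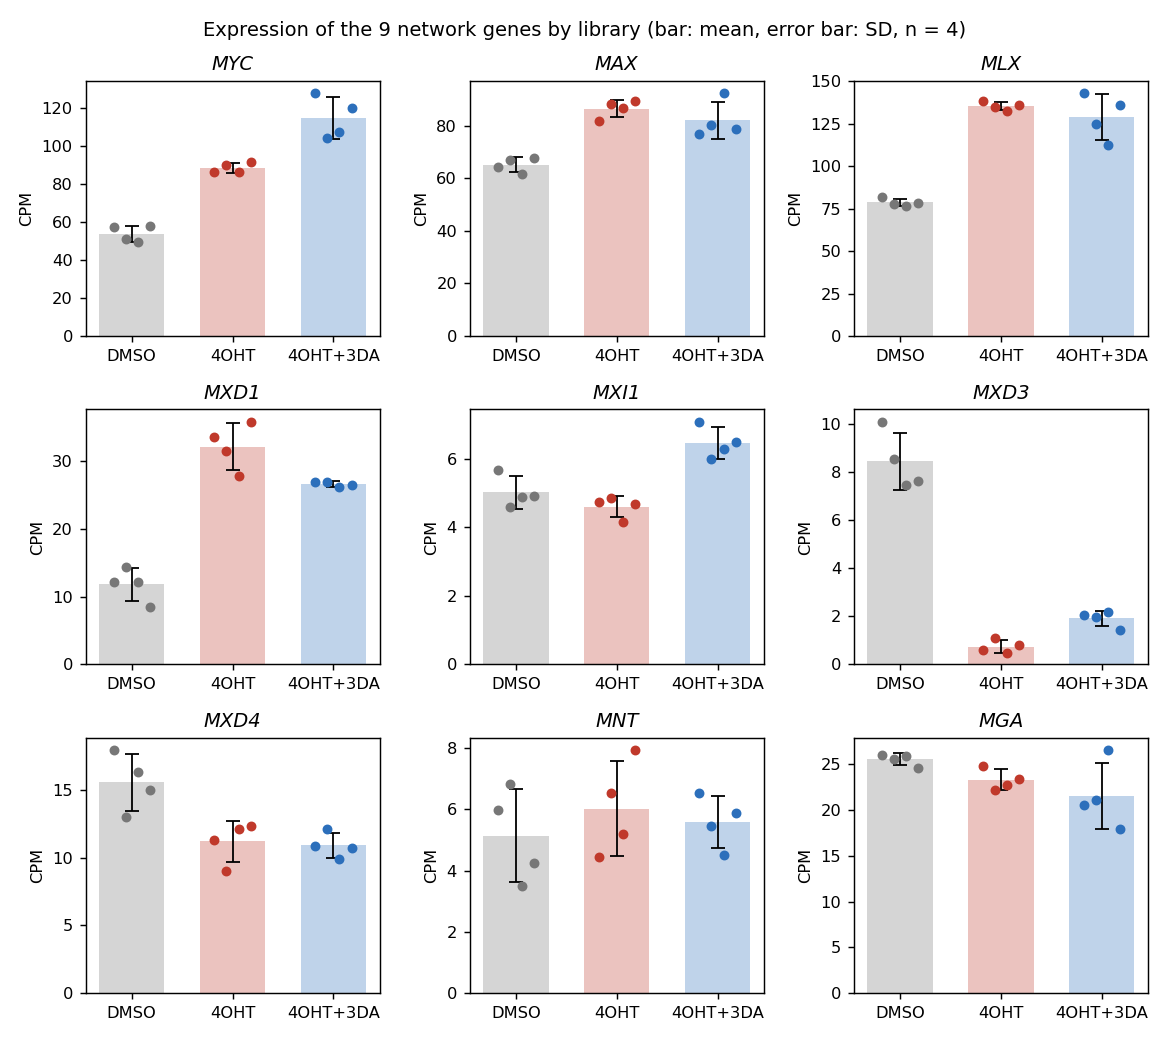
Expression of the 9 network genes in CPM (vertical axes from 0) in the DMSO, 4OHT and 4OHT+3DA groups, with each point a library, bars the mean and error bars the SD of 4 libraries. MYC steps up from 53.9 to 88.5 to 114.7 CPM, whereas MXD3 drops from 8.44 to 0.745 CPM with 4OHT and stands at 1.91 CPM with 3DA added.

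MYC (ENSG00000136997), the activating member, was at 57.2, 51.1, 49.5 and 57.7 CPM in libraries 17 to 20 with DMSO, where CPM are counts scaled to the effective library size. It was at 86.5, 90.1, 86.0 and 91.3 CPM in libraries 21 to 24 with 4OHT, and at 127.7, 104.2, 107.1 and 119.9 CPM in libraries 29 to 32 with 4OHT+3DA. Every 4OHT library was above every DMSO library, and every library with 3DA was above every 4OHT library. The rise with 4OHT was 1.64-fold (log2 fold change 0.72, SE 0.082, edgeR adjusted p = 4.59e-07). 3DA added a further 1.30-fold (log2 0.37, SE 0.079, adjusted p = 0.00182 in edgeR), which was 0.41 on the log2 scale without library 31. Over both agents MYC RNA was 2.13-fold the DMSO level (log2 1.09, SE 0.081, edgeR adjusted p = 1.5e-09). Each of these is a share of the RNA of a bulk sample, in which fewer cells of a type and less RNA per cell cannot be told apart.

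MAX (ENSG00000125952), the shared partner of MYC and of the MXD proteins, was at 64.2, 67.0, 61.6 and 67.8 CPM with DMSO. It was at 81.8, 88.1, 86.7 and 89.3 CPM with 4OHT and at 76.8, 80.1, 92.3 and 78.8 CPM with 3DA added. Both treated groups lay wholly above the DMSO libraries and overlapped each other, with library 31 the highest of the group given 3DA. MAX rose with 4OHT by a log2 fold change of 0.41 (SE 0.075, edgeR adjusted p = 0.000147), beside 0.72 for MYC. The change with 3DA against 4OHT was −0.08 (95% interval −0.23 to 0.08, edgeR adjusted p = 0.47). The log2 ratio of MYC to MAX was taken within each library from CPM not divided by gene length. It went from −0.28 ± 0.099 (SD, n = 4) with DMSO to 0.03 ± 0.037 with 4OHT and 0.48 ± 0.23 with 4OHT+3DA. Only the change of such ratios between groups is read here and below, not their sign. Per kb of exon MYC was already above MAX with DMSO, at 17.9 against 14.7 CPM per kb.

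MLX (ENSG00000108788), the MAX-like partner of the Mondo proteins, was at 81.7, 77.8, 76.8 and 78.4 CPM with DMSO. It was at 138.4, 135.0, 132.8 and 136.0 CPM with 4OHT and at 143.1, 125.1, 112.3 and 136.2 CPM with 3DA added. The libraries of each group except the last lay close together, and both treated groups were wholly above DMSO and overlapped each other. The rise with 4OHT was 1.72-fold (log2 0.78, SE 0.075, edgeR adjusted p = 4.32e-08), and 3DA left no called difference from 4OHT (log2 −0.07, 95% interval −0.22 to 0.08, edgeR adjusted p = 0.513). The log2 ratio of MYC to MLX, again from CPM not divided by gene length, was therefore alike in the first groups. It was −0.55 ± 0.087 with DMSO and −0.62 ± 0.047 with 4OHT, and higher with 3DA at −0.17 ± 0.080. The partners of MLX were less evenly covered. MLXIP, which encodes MondoA, went from 5.96 ± 1.13 CPM to 8.69 ± 1.08 CPM with 4OHT (log2 0.55, SE 0.16, edgeR adjusted p = 0.00786) and stood at 8.81 ± 0.966 CPM with 3DA added, a difference from 4OHT of 0.02 on the log2 scale that was not called. MLXIPL, which encodes ChREBP, had 10, 2 and 24 reads over the 4 libraries of DMSO, 4OHT and 4OHT+3DA and was not tested. ARRDC4, an arrestin-domain gene induced by MondoA and MLX, rose from 3.30 ± 1.13 to 20.6 ± 5.27 CPM with 4OHT (log2 2.65, SE 0.24, edgeR adjusted p = 2.65e-08) and was at 17.9 ± 4.71 CPM with 3DA added. The other target listed, TXNIP, had no read under its matched identifier in any library, and nothing is read from it.

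MXD1 (ENSG00000059728), the founding MYC antagonist, known to rise as cells stop dividing and differentiate, was at 12.2, 14.4, 12.2 and 8.51 CPM with DMSO. It was at 33.6, 31.5, 27.8 and 35.9 CPM with 4OHT and at 27.0, 27.0, 26.2 and 26.5 CPM with 3DA added. All libraries given 4OHT were above all DMSO libraries, and those given 3DA, within 1 CPM of each other, lay just under the lowest 4OHT library. MXD1 rose 2.73-fold with 4OHT (log2 1.45, SE 0.13, edgeR adjusted p = 1.82e-08), the largest rise among the 9 genes. The lower level with 3DA did not pass the test (log2 −0.27, SE 0.12, edgeR adjusted p = 0.102) although the groups did not overlap. After a correction for GC content the difference was −0.34 and was called (edgeR adjusted p = 0.0281). MYC and MXD1 rose by different amounts, so the log2 ratio of MYC to MXD1 fell from 2.20 ± 0.40 with DMSO to 1.46 ± 0.13 with 4OHT, and was 2.10 ± 0.14 with 3DA, where its range of 1.94 to 2.24 lay inside that of DMSO (1.81 to 2.74).

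MXD3 (ENSG00000213347), the family member known for its expression in S phase of dividing cells, was at 10.1, 8.56, 7.48 and 7.63 CPM with DMSO. It was at 0.580, 1.12, 0.484 and 0.801 CPM with 4OHT, or 6 to 14 reads per library, and at 2.04, 1.96, 2.19 and 1.45 CPM with 3DA added, or 21 to 38 reads. The 3 groups did not overlap, and the group given 3DA stood between the other two. The fall with 4OHT was to 0.0895 of the DMSO level (log2 −3.48, SE 0.25, edgeR adjusted p = 6.81e-10), the largest change among the members. With 3DA the level was 2.56-fold that of 4OHT alone (log2 1.35, SE 0.28, 95% interval 0.77 to 1.94, edgeR adjusted p = 0.00142) and 0.229 of the DMSO level (log2 −2.13, SE 0.21, edgeR adjusted p = 8.24e-08). All 10 proliferation markers moved in the same directions in the same libraries. Each fell with 4OHT, where 25.5% of all tested genes were called lower. Each was higher with 3DA than with 4OHT, where 14.4% of all tested genes were called higher. The summed level of the 10 markers was 1024 to 1072 CPM with DMSO, 211.8 to 219.3 with 4OHT and 402.9 to 503.8 with 4OHT+3DA. MKI67, the antigen Ki-67 of cycling cells, changed by a log2 fold change of −3.74 (SE 0.22) and then by 1.61 (SE 0.23). The part of these markers in the change of MXD3 was not tested.

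MXI1 (ENSG00000119950), the antagonist also called MXD2, was at 5.68, 4.58, 4.90 and 4.92 CPM with DMSO and at 4.74, 4.87, 4.15 and 4.67 CPM with 4OHT. With 3DA it was at 7.08, 5.99, 6.28 and 6.49 CPM, above every library of both other groups, which overlapped. The change with 4OHT was not called (log2 −0.12, 95% interval −0.45 to 0.21, edgeR adjusted p = 0.538), whereas 3DA against 4OHT gave 0.49 (SE 0.15, edgeR adjusted p = 0.0209). That call was lost without library 23 (0.44, adjusted p = 0.0631 in edgeR) and without library 29 (0.44, adjusted p = 0.052 in edgeR). Against DMSO the difference of 0.37 (edgeR adjusted p = 0.0465) was close to the threshold and was not called in 13 of 21 alternatives.

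MXD4 (ENSG00000123933), an antagonist found mostly in resting and differentiated cells, was at 17.9, 13.0, 16.3 and 15.0 CPM with DMSO. It was at 11.3, 9.02, 12.1 and 12.3 CPM with 4OHT and at 10.9, 12.1, 9.91 and 10.7 CPM with 3DA added. The treated groups overlapped each other and lay under the DMSO libraries, the highest 4OHT library (12.3) near the lowest DMSO library (13.0). The fall with 4OHT was 0.47 on the log2 scale (SE 0.13, edgeR adjusted p = 0.00671), and the difference between 3DA and 4OHT was −0.04 (95% interval −0.32 to 0.24, edgeR adjusted p = 0.852). MXD4 and MXD1, both known from differentiated cells, thus moved in opposite directions when 4OHT was given.

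MNT (ENSG00000070444), the broadly expressed antagonist, was at 5.98, 6.83, 3.51 and 4.26 CPM with DMSO and at 4.45, 6.55, 5.18 and 7.94 CPM with 4OHT. With 3DA it was at 6.54, 5.47, 4.50 and 5.87 CPM, and the 3 groups overlapped throughout. None of its differences was called: 0.24 with 4OHT (95% interval −0.23 to 0.70, edgeR adjusted p = 0.39) and −0.12 for 3DA against 4OHT (−0.57 to 0.33, edgeR adjusted p = 0.715). MGA (ENSG00000174197), the scaffold of PRC1.6, was at 26.1, 25.6, 26.0 and 24.7 CPM with DMSO, at 24.9, 22.2, 22.8 and 23.4 CPM with 4OHT, and at 20.5, 21.1, 26.6 and 17.9 CPM with 3DA added. The high value of the last group was library 31, and edgeR's test of all 12 libraries called no difference of MGA. Scaling by library totals, the GC correction and thinning, which also use all libraries, did call it lower in comparisons with DMSO. Against DMSO the change with both agents was −0.25 (SE 0.11, edgeR adjusted p = 0.0679), and without library 31 it was −0.36 and was called (adjusted p = 0.00328 in edgeR). MGA transcripts had a GC content of 42.0%, against a median of 47.6% over the genes tested.

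**Figure D2:**
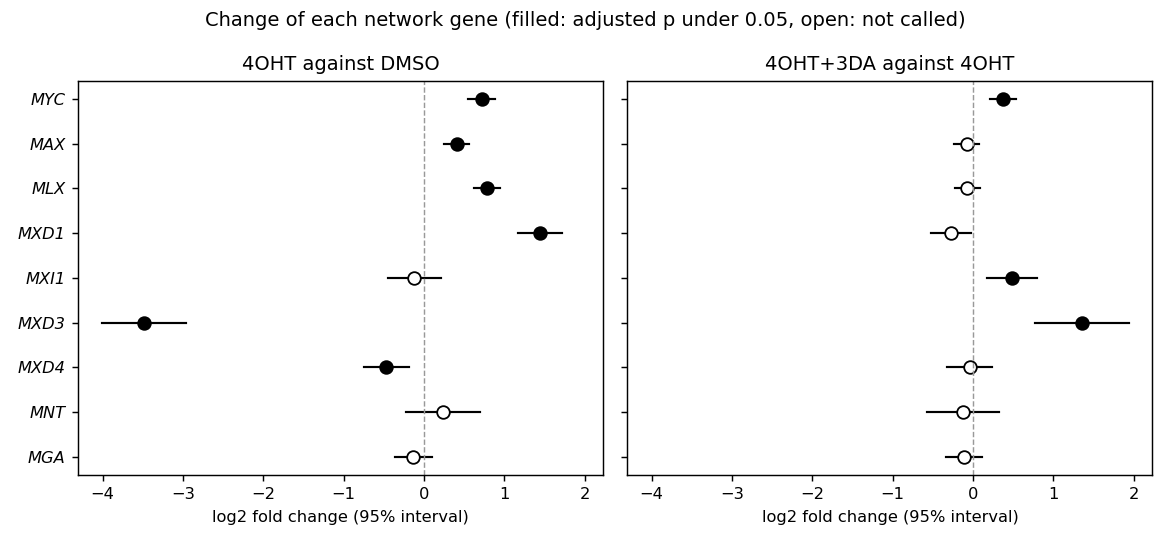
Log2 fold change (horizontal axis) of each network gene with its 95% interval, for 4OHT against DMSO on the left and 4OHT+3DA against 4OHT on the right, where filled points passed an adjusted p of 0.05 in edgeR. With 4OHT 4 genes lie to the right and 2 to the left of 0, and with 3DA added the filled points are MYC, MXI1 and MXD3.

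Levels of different genes were compared as CPM per kb of exon. The length was that of all annotated exons of a gene merged, which can exceed that of the transcripts present. The order of genes and the shares of the MXD sum depend on these lengths. With DMSO the 3 abundant members were MLX (18.5 ± 0.507), MYC (17.9 ± 1.40), which overlapped it, and MAX (14.7 ± 0.639). The 4 genes next in order, MXD4, MXD1, MXD3 and MGA, ran from 2.20 to 1.45 CPM per kb, each overlapping its neighbour, and MXI1 (1.09) and MNT (0.589) came last. With 4OHT the order at the top was MLX (31.8), MYC (29.5), MAX (19.5) and MXD1 (5.07), with no overlap between neighbours. MXD4 and MGA overlapped, as did MXI1 and MNT, and MXD3 was lowest at 0.145 ± 0.055 CPM per kb. With 3DA added MYC (38.2 ± 3.67) stood above MLX (30.3 ± 3.16) without overlap, while MXD4, MXI1 and MGA overlapped their neighbours and MXD3 (0.371 ± 0.062) was again lowest. The network thus had far more RNA per length for MYC and the shared partners than for any antagonist in each group.

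The 4 MXD genes kept a similar summed level while its makeup changed. The sum of MXD1, MXI1, MXD3 and MXD4 was 6.79 ± 0.671 CPM per kb with DMSO, 7.80 ± 0.639 with 4OHT and 7.51 ± 0.199 with 4OHT+3DA, and the ranges of the groups overlapped. MXD1 made up 27.3 ± 4.85% of the sum with DMSO, 64.9 ± 2.06% with 4OHT and 55.9 ± 0.687% with 3DA added. MXD3 went from 24.1 ± 1.78% to 1.86 ± 0.719% and 4.93 ± 0.828%. MXD4 went from 32.5 ± 3.64% to 20.4 ± 2.94% and 20.5 ± 1.35%. No MXD gene held more than 35.3% of the sum in any DMSO library, and MXD1 was above that share in every library given 4OHT.

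**Figure D3:**
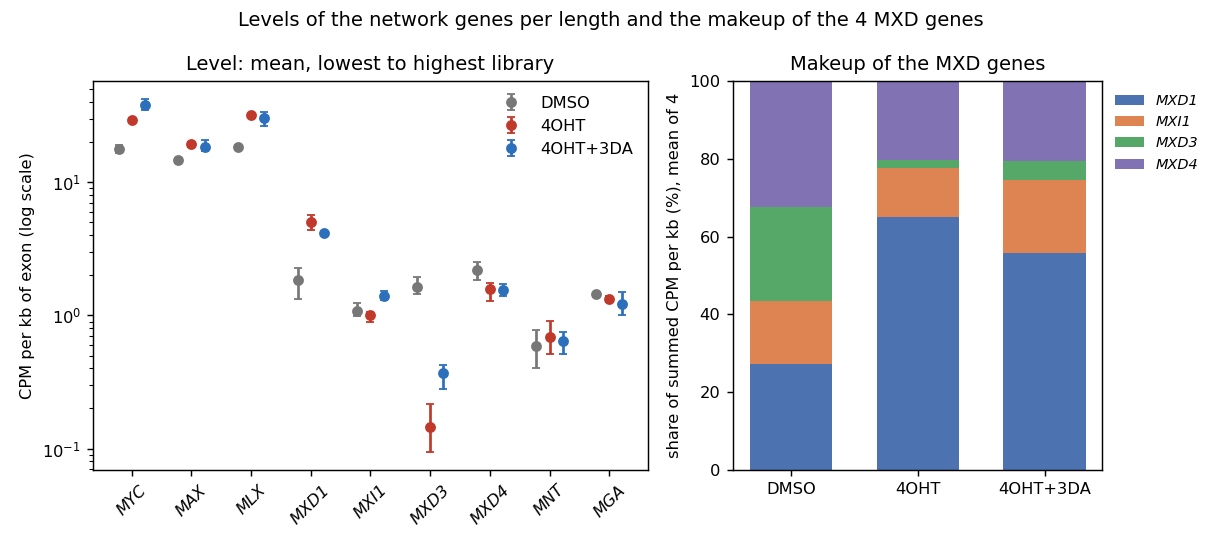
On the left, CPM per kb of exon on a log axis for each network gene (point: mean of 4 libraries, bar: lowest to highest library) in the 3 groups. On the right, the mean share (%) of MXD1, MXI1, MXD3 and MXD4 in their summed CPM per kb, where MXD1 goes from 27.3% with DMSO to 64.9% with 4OHT.

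Other paralogues of MYC were scarcely detected. MYCN had no read in any of the 12 libraries, and MYCL had 24, 16 and 10 reads over the DMSO, 4OHT and 4OHT+3DA groups and was not tested. Genes known to act with MYC and its antagonists were described by the counts and medians of lists, which were chosen with earlier results of these data known. Over all tested genes the medians were −0.01 for 4OHT against DMSO and 0.01 for 3DA against 4OHT. Of all tested genes 26.5% were called higher and 25.5% lower with 4OHT, and 14.4% and 12.4% with 3DA against 4OHT. These shares stand beside the counts of every list below, and with 4OHT the cofactor and corepressor counts did not exceed them. Among 12 cofactors that MYC recruits, 2 rose and 3 fell with 4OHT (median −0.16). CDK9, the kinase that releases paused RNA polymerase, rose by 0.52 (SE 0.095), the acetyltransferase KAT2A rose by 0.57 (SE 0.22, not called without library 17, 20, 23 or 24, with library totals or after thinning), and the acetyltransferase subunits EP400 (−0.36, not called with no filter on low counts) and ACTL6A (−0.31) fell. With 3DA 2 were higher than with 4OHT and 0 lower, namely the helicase RUVBL1 (0.41, SE 0.079) and ACTL6A (0.32). Scaling by library totals alone gave 1 higher and 8 lower cofactors with 4OHT, and put the median of all genes at −0.17. The corepressor list of 10 genes, to which ZBTB17 was added, had 2 that rose and 2 that fell with 4OHT. SIN3A, the scaffold that MXD proteins bind, fell by 0.53 on the log2 scale (SE 0.087), NCOR1 fell by 0.25, and ZBTB17, which encodes the MYC partner MIZ1, rose by 0.37. SAP18, a subunit of the SIN3 complex, rose by 0.28. The call of ZBTB17 was lost with library totals or without library 24, and that of SAP18 with library totals or without library 17 or 22. With 3DA against 4OHT, HDAC2 was higher (0.32, but 0.0928 and not called with the GC correction) and HDAC1 lower (−0.19, edgeR adjusted p = 0.0496, called in 6 of 21 alternatives).

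MGA works with other subunits in PRC1.6, some of which were higher with 3DA than with 4OHT. Over all tested genes 26.5% were called higher and 25.5% lower with 4OHT, and 14.4% and 12.4% with 3DA against 4OHT. Of 9 subunit genes, 1 rose and 1 fell with 4OHT (median 0.08), and 4 were higher and 0 lower with 3DA against 4OHT (median 0.32). The higher ones were CBX3 (0.59, SE 0.15), a heterochromatin protein, RNF2 (0.54, SE 0.12), the ubiquitin ligase of Polycomb complexes, PCGF6 (0.53, not called without library 22, 24 or 31) and TFDP1 (0.38). Without library 31 CBX3 was at 0.34 (edgeR adjusted p = 0.00288), RNF2 at 0.37 and PCGF6 at 0.32, and the GC correction gave 0.38 for CBX3 and 0.29 for RNF2. The subunit that fell with 4OHT was TFDP1 (−0.56, SE 0.10), and E2F6 was the one that rose (0.44). Scaling by library totals gave 0 higher and 3 lower subunits with 4OHT. Against DMSO 5 subunits were higher with both agents, beside 27.0% of all tested genes. The count of 5 became 3 without library 20, without library 31 or with library totals, and 7 with the GC correction. Library totals also gave 1 lower subunit there, beside 0 in the main test. Of 10 germline genes that PRC1.6 keeps silent in mouse cells, only TAF7L passed the filter, and none was called. The other 9 had between 0 and 42 reads summed over a group.

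MYC protein was not measured, but 16 genes for its turnover were. With 4OHT 4 rose and 9 fell (median −0.37), beside 26.5% higher and 25.5% lower among all tested genes. With 3DA against 4OHT 4 were higher and 1 lower (median 0.20), beside 14.4% and 12.4% of all tested genes. The 1 lower call became 0 with library totals, the GC correction, no filter on low counts or without library 31. The 4 higher calls became 6 with library totals and 5 with the GC correction. The list mixes genes that degrade MYC with genes that protect it, so its counts and medians give no direction for MYC protein. The largest falls with 4OHT were in PLK1 (−3.34, SE 0.11), CIP2A (−1.78), which protects MYC from dephosphorylation, SKP2 (−1.37), a ubiquitin ligase subunit, and AURKA (−1.19). In the comparison of 3DA with 4OHT, which shares the 4OHT libraries, PLK1 was higher by 1.92 (SE 0.11), CIP2A by 1.26 (1.01 without library 31), SKP2 by 0.85 and AURKA by 0.37. PLK1 and AURKA are also mitotic kinases, and they moved in the direction of the proliferation markers above. FBXW7, the ligase subunit best known for degrading MYC, was not among the genes named by size: it changed by −0.48 with 4OHT (SE 0.19, edgeR adjusted p = 0.0438, called in 13 of 21 alternatives) and by 0.48 with 3DA (SE 0.19, edgeR adjusted p = 0.0644), and was picked after its values were seen. STUB1, another ligase, rose by 0.87 with 4OHT (SE 0.13). Scaling by library totals gave 1 higher and 9 lower turnover genes with 4OHT.

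Of 23 genes for ribosome biogenesis, 18 rose and 1 fell with 4OHT (median 0.41), beside 26.5% higher and 25.5% lower among all tested genes. NOP16 rose by 0.98 (SE 0.076), RRP12 by 0.86, POLR1B, a subunit of RNA polymerase I, by 0.79, and NIP7 by 0.62. The member that fell was FBL, which encodes fibrillarin (−0.24, edgeR adjusted p = 0.032). That call was lost with no filter on low counts and without library 17, 18, 20, 23 or 24. Scaling by library totals gave 13 higher and 3 lower ribosome biogenesis genes with 4OHT. With 3DA against 4OHT 7 were higher and 0 lower (median 0.13), beside 14.4% higher and 12.4% lower among all tested genes. The 7 were led by NOLC1 (0.71, SE 0.075). NIP7 was higher by 0.31, POLR1B by 0.29 (not called without library 22, 30 or 32) and GNL3 by 0.28 (0.17 and not called with the GC correction). In the 3 lists with 0 lower genes here (cofactors, PRC1.6 subunits and ribosome biogenesis), 0 were lower at an unadjusted p under 0.05 in edgeR, and 0 were called lower by DESeq2 or limma-voom. The 7 higher calls moved with the processing: there were 4 without library 22, 23 or 24, 3 without library 30, and 11 with a GC correction. Of 25 metabolic targets, 17 rose and 3 fell with 4OHT (median 0.40), with the glycolytic kinase HK2 up by 2.31 (SE 0.077), SLC7A5 by 0.85, SHMT2 by 0.68 and NME1, a nucleoside diphosphate kinase, by 0.63. With 3DA against 4OHT 7 were higher and 4 lower (median 0.06). TFAM, a factor for mitochondrial DNA, was higher by 1.06 (SE 0.16), the nucleotide synthesis genes PRPS2 and PPAT by 1.03 and 0.61, and PKM, pyruvate kinase, was lower by 0.49 on the log2 scale. Without library 31 TFAM was at 0.80, PRPS2 at 0.87 and PPAT at 0.51, all still called, and PPAT was at 0.25 with the GC correction. The 4 lower calls became 1 without library 19, 21, 22, 23 or 24, and 2 without library 18, 30 or 31. Scaling by library totals gave 14 higher and 3 lower metabolic targets with 4OHT.

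**Figure D4:**
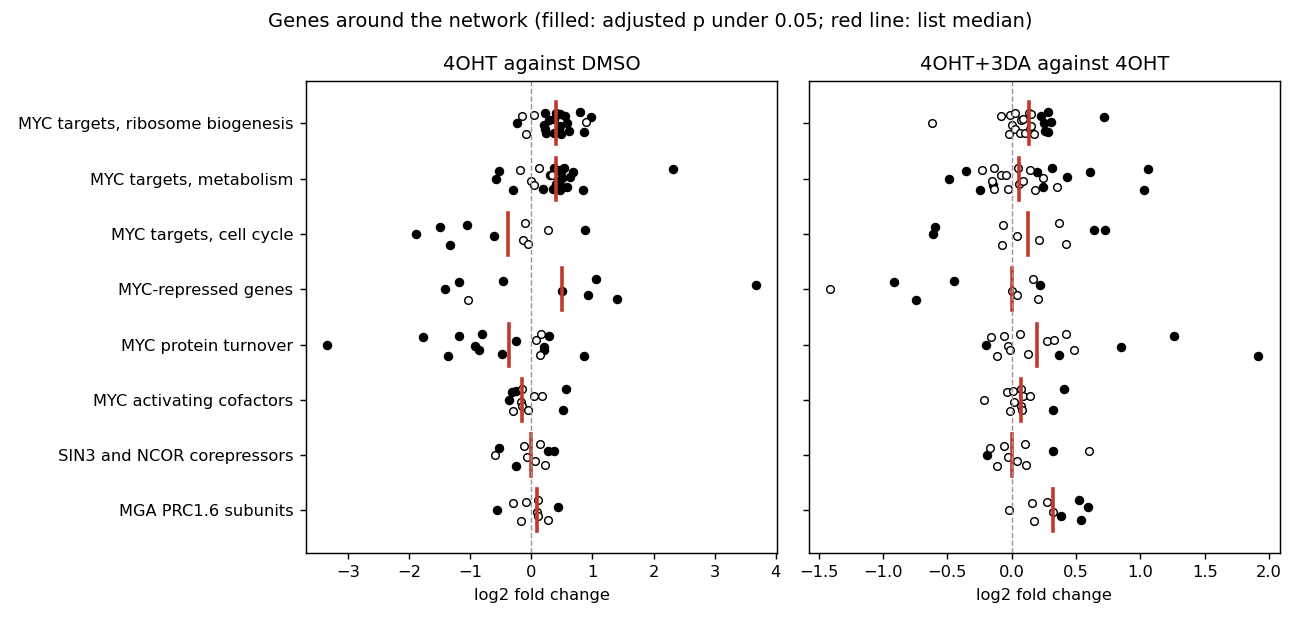
Log2 fold change (horizontal axis) of each tested gene of 8 lists around the network, for 4OHT against DMSO on the left and 4OHT+3DA against 4OHT on the right. Each point is a gene, filled where edgeR's adjusted p was under 0.05, and red lines are list medians, which with 4OHT are 0.41 and 0.40 for ribosome biogenesis and metabolism and −0.38 for cell cycle targets.

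Among cell cycle targets of MYC, falls outnumbered rises with 4OHT. Over all tested genes 26.5% were called higher and 25.5% lower with 4OHT, and 14.4% and 12.4% with 3DA against 4OHT. Of 12 listed genes 10 were tested, and with 4OHT 1 rose and 5 fell (median −0.38). The count of 5 became 6 to 7 when any single library was left out, and 7 with library totals. The replication helicase subunits MCM5 (−1.89, SE 0.11) and MCM4 (−1.49, SE 0.088), E2F1 (−1.34) and ID2 (−1.06) fell, and CCND2, encoding cyclin D2, was the gene that rose (0.88, SE 0.096). With 3DA against 4OHT MCM4 (0.72) and MCM5 (0.64) were higher and CCND2 (−0.61) and ID2 (−0.59, not called without library 22 or 30) lower. Genes known to be repressed by MYC moved both ways: of 9 tested of 12 listed, 5 rose and 3 fell with 4OHT (median 0.50). The CDK inhibitor genes CDKN2B (3.68, SE 0.11) and CDKN1A (1.41, SE 0.070) rose while CDKN1B (−1.42, SE 0.21) and the growth factor receptor PDGFRB (−1.19) fell. With 3DA 1 was higher than with 4OHT, THBS1 (0.22), and 3 were lower, the stress gene DDIT3 (−0.91, SE 0.091), CDKN1A (−0.74, SE 0.069) and GADD45A (−0.45). CDKN2B and CDKN1B were not called there.

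The genes with the most similar profile to 8 of the members over the 12 libraries were found by the root-mean-square (RMS) difference of log2 CPM, each gene centred on its own mean, among 11169 genes with an average log2 CPM above 1. For MYC these were MIPEP (RMS 0.107), BCL3 (0.118) and KCNMA1 (0.121), where the profile of MYC itself had an SD of 0.481. For MLX they were OXA1L (0.049), TRMT1 and PMPCA, and for MAX PEX13, DEGS1 and EIF2S3. For MXD1 they were SERPINB8 (0.156), PELI1 and ABCG2. For MXD3 they were HMGB2 (0.288), CDCA7 and NUSAP1, and for MXD4 ING4 (0.075), AKAP13 and SUMF1. MGA was nearest to SEPTIN10, PNN and DPP8, and MNT to ZNF276 at 0.180 against its own SD of 0.330.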

How the data were processed

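RNA of 12 libraries was sequenced after Smart-Seq2 and Nextera XT preparation, which does not mark strand, so genes that overlap or have near-identical copies are uncertain. As deposited, the values are whole-number counts per gene that the authors did not normalise. CASAVA 1.8.2, TopHat2 2.0.11 and featureCounts 1.18.0 with hg19 and GRCh37 are named in the submitters' processing notes. Testing used edgeR 4.0.16 (R 4.3.3): filterByExpr with a minimum count of 10, TMM scaling, 1 quasi-likelihood model of 3 groups with 9 residual degrees of freedom, and Benjamini-Hochberg adjustment over 13248 genes at a threshold of 0.05. The SE is the log2 fold change divided by the square root of F. Log values used a prior count of 2. Counting error and spread between libraries limit the precision: all 18 pairs of replicates differed beyond counting noise. Symbols were matched for 50127 of 62069 identifiers and all 185 entries of 17 gene lists, and unnamed identifiers, with 0.488% of reads, were tested too. Exon length and GC content came from a GENCODE annotation of GRCh38, which is not the authors' build.

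The 9 members were reported in full. The genes nearest in profile to MXI1 are not reported here. From each other list outside the markers, the called genes with the largest absolute change were named, up to 4 each for 4OHT against DMSO and 4OHT+3DA against 4OHT, with FBXW7, FBL, STUB1, TAF7L and CCND2 added by their role or position in a count. Lists were given by counts, or not at all, for 4OHT+3DA against DMSO, and marker lists by counts, sums and examples. The members and lists were chosen with earlier results of these data known. Alternatives were DESeq2 1.42.0, limma-voom (limma 3.58.1), RLE factors, library totals, other filters, the 8 libraries compared, a GC correction by loess (span 0.4), thinning to 9451160 reads and each library left out. Once the data had been seen, list counts under them and the E-box search were added. The steps were tested on simulated data. Python 3.11.15 and matplotlib 3.10.9 drew the plots.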

Additional observations from a re-analysis of the deposited data

How the results depend on the processing

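The log2 fold changes and the counts of calls were computed under 21 alternatives. The ratios, the overlap of groups, the order of levels, the makeup of the MXD sum, the nearest profiles and the E-box search were not. No paired analysis was possible because the groups share no replicate numbers. MYC and MXD3 kept their call and direction in all 21 alternatives of each comparison: MYC ranged from 0.56 to 0.75 (4OHT against DMSO), 0.32 to 0.46 (4OHT+3DA against 4OHT) and 0.99 to 1.21 (4OHT+3DA against DMSO), and MXD3 from −3.73 to −3.31, 1.2 to 1.6 and −2.23 to −1.98. MAX, MLX, MXD1 and MXD4 kept theirs in both comparisons with DMSO. Of the 189 combinations of member and alternative per comparison, 188, 177 and 171 left call and direction as reported. The count of members lower with 3DA than with 4OHT went from 0 to 1 with the GC correction, through MXD1 (−0.34). Differences that were never called and lay near 0 changed sign. For 4OHT+3DA against 4OHT, the GC correction gave 0.0106 for MAX, 0.0522 for MXD4 and 0.0111 for MLX, and library totals gave 0.0189 for MXD4. Leaving out single libraries gave −0.13 to 0.0128 for MXD4, above 0 without library 24 (0.0128) or 31 (0.0038), and −0.23 to 0.0482 for MNT, above 0 without library 24. MNT in 4OHT+3DA against DMSO ranged from −0.0212 (without library 19) to 0.29. MXI1 with 3DA against 4OHT also lost its call with no filter on low counts (0.52, edgeR adjusted p = 0.0703) and after thinning (0.36, edgeR adjusted p = 0.201), and its adjusted p ranged from 0.012 to 0.201. MGA was called lower with library totals in both comparisons with DMSO (−0.29 and −0.35), and against DMSO with 3DA also after the GC correction (−0.28) and thinning (−0.31). Library totals lowered the share of higher calls among all genes from 51.0% to 33.5% for 4OHT against DMSO and from 52.3% to 40.9% for 4OHT+3DA against DMSO, and raised it from 53.7% to 67.7% for 4OHT+3DA against 4OHT. The cause was not tested. With 6 to 14 reads per 4OHT library, depth limits the value of MXD3.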
